A study of Mus musculus with 31 samples.

Results

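The developmental homeobox genes are 85 genes of the 8251 that could be named in 31 microarrays of differentiating mouse embryonic stem (ES) cells. The rule that selects them reads gene names and no measured value: every probe set annotated with exactly 1 gene symbol of the Hox clusters or of the Pax, Lhx, Dlx, Meis, Pbx, Cdx, Emx, Otx, Msx, Pitx, Irx and Nkx families or of the sine oculis family (such as Six4), together with En1, En2, Gsc and Hesx1. The rule found 101 probe sets, and each gene is represented by the one with the highest mean over all arrays. Of the 85 members, 31 are Hox genes, 51 belong to the other families and 3 are antisense or opposite-strand RNAs (Dlx1as, Dlx6os2 and Hoxa11os). No probe set with a single symbol of the Otx or Emx families was found, so these are not analysed here.

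All cells were B6 mouse ES cells that had been grown on mouse embryonic feeders (MEFs) with serum and LIF, the cytokine that holds mouse ES cells undifferentiated. Embryoid bodies (EBs), aggregates in which ES cells differentiate, were seeded from ES cells on gelatin into nonadherent dishes without LIF and taken at day 4 (7 arrays), day 8 (6 arrays) and day 14 (6 arrays). There were 2 groups of day 0: feeder-depleted ES cells passaged once on gelatin (6 arrays) and ES cells sorted on an Oct4 GFP reporter (6 arrays). An EB is a mixture of cell types, and in such bulk samples fewer cells of a type and less RNA per cell cannot be told apart.

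Homeobox genes encode transcription factors that bind DNA through the homeodomain and set the identity of body regions and cell types. The members were selected by name, and whether each of them, such as each Pax gene, encodes a homeodomain was not checked. Hox genes lie in 4 clusters and give positions along the head to tail axis, in an order that follows their place in the cluster. Meis and Pbx proteins, of the TALE class, bind DNA together with Hox proteins, while families such as Dlx, Pax and Lhx pattern the forebrain, eye, face, kidney and other organs. In ES cells most of these genes are known to be held inactive by Polycomb proteins, frequently at CpG-rich promoters.

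The promoters of 4 members are shown because their stage patterns are described below: Dlx1 and Meis1 were highest at day 14, Hesx1 at day 8, and Msx2 was raised at both days. Each line is the 250 bases before the RefSeq start (GRCm38.p6), written 5′ to 3′ on the strand of the gene, with CpG dinucleotides in capitals. Dlx1 lies at chr2:71529195-71529444 on the plus strand, Meis1 at chr11:19018970-19019219 on the minus strand, Msx2 at chr13:53472781-53473030 on the minus strand and Hesx1 at chr14:27000112-27000361 on the plus strand.
Dlx1: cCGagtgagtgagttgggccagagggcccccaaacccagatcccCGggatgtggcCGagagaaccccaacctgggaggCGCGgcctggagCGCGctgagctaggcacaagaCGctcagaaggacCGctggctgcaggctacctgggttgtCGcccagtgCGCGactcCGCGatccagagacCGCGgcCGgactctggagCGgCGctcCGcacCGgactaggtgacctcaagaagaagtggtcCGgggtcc
Meis1: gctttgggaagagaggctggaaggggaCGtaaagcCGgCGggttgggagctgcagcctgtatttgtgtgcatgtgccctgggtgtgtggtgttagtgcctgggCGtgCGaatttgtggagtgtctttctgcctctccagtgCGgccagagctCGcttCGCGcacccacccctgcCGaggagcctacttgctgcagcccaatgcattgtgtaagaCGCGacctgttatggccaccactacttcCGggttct
Msx2: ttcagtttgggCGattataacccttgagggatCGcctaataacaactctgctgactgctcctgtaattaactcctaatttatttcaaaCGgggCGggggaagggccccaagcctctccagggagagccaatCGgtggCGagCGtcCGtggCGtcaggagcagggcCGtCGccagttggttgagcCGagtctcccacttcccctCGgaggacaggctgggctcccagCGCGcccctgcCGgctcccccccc
Hesx1: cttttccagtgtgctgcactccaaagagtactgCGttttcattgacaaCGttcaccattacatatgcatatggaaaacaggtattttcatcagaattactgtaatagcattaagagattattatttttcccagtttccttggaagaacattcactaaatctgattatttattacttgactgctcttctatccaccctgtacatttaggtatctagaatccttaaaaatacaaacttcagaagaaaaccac
These windows hold 22, 13, 16 and 2 CpG dinucleotides for Dlx1, Meis1, Msx2 and Hesx1. Over the 70 promoters of the 61 members that RefSeq's table lists, the median was 14, against 10 over the promoters of protein-coding genes and 6 over all promoters. The homeodomain core TAATTA was found on either strand in 4.29% of member promoters, against 4.84% of all promoters, and the only one in the printed windows lies in Msx2. The core TGACAG, bound by TALE proteins, was found in 20% of member promoters, against 15.9% of all promoters, and in none of the printed windows. These matches describe letters in a window and no binding was measured.

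Before the members are compared, some features of the arrays bear on the results. Signal is the deposited dChip intensity in arbitrary linear units. Day 4 arrays 6 and 7 stood apart from the 5 other day 4 arrays (Pearson's r over all probe sets 0.947 to 0.978, against 0.987 to 0.993 among those 5). Day 8 arrays 2 and 4 were also nearer to each other (r = 0.994) than to the rest (0.972 to 0.989). The 3′ to 5′ signal ratio of the Gapdh control was 3.48 to 6.85 on gelatin and 2.76 to 3.09 in sorted cells, 2.24 to 4.40 at day 4, and between 2.06 and 2.68 at days 8 and 14. At day 4 the lowest ratios were those of arrays 6 and 7 (2.24 and 2.34, against 2.77 to 4.40 in the other 5). The summed signal of 20 pluripotency genes was 51673 to 59931 on gelatin, 89301 to 103654 in sorted cells, 49534 to 88056 at day 4, 36556 to 78548 at day 8 and 18811 to 35772 at day 14. The gelatin cells thus overlapped the day 4 and day 8 EBs in this sum, and the sorted cells lay above every other array. The summed signal of 18 fibroblast genes was 41239 to 72014 on gelatin, against 18603 to 24194 in sorted cells.

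Most members changed little between groups, and about as many were faint as not. A probe set was called dim if its mean signal over all arrays was in the lowest 40% (428 or less), and 43 of the 85 members were dim (50.6%, against 30.5% of all genes). The distance between the highest and the lowest group mean, on the log2 scale, had a median of 0.27 over the members, against 0.41 over all genes. It was under 0.5 for 65 members (76.5%, against 58.1% of all genes) and reached 1 for 7 members, namely Dlx1 (1.87), Pbx3 (1.70), Meis1 (1.63), Pax6 (1.29), Pbx2 (1.05), Hoxa5 (1.02) and Hoxc6 (1.02). Among dim probe sets the median distance was 0.28 for members and 0.29 for all genes, whereas among brighter ones it was 0.26 for members and 0.49 for all genes. In the 9 comparisons below, 16 members (18.8%, against 16.9% of all genes) never passed the test, among them Cdx2, Hoxa10, Hoxb4, Pax9 and Six2.

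**Figure D1:**
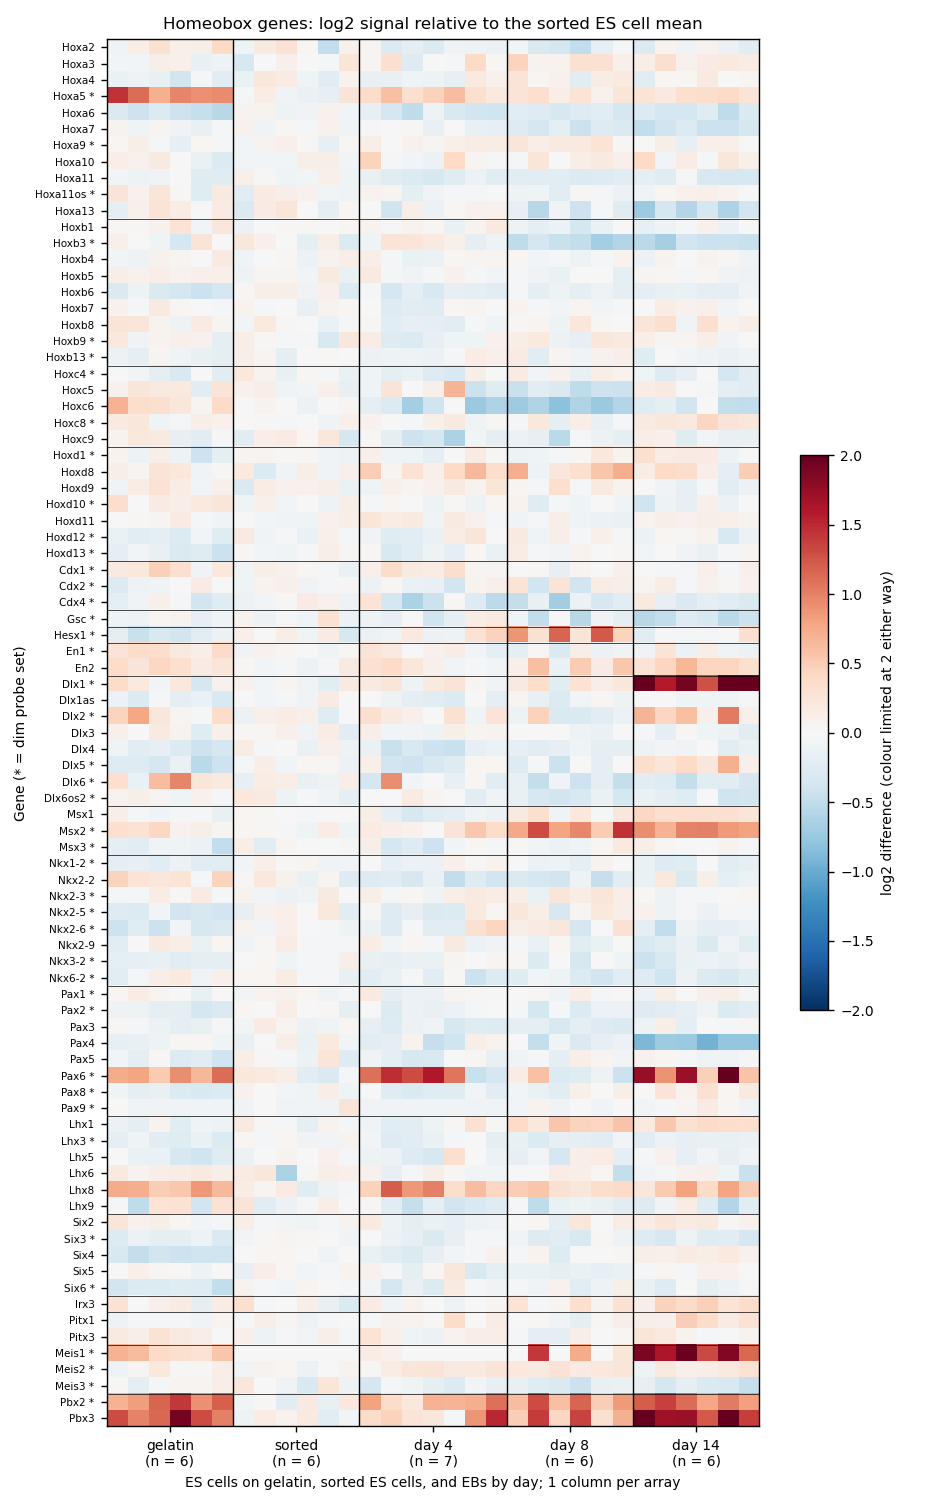
Log2 signal of the 85 members (rows, by family) on the 31 arrays (columns, by group), each relative to the mean of that gene in sorted ES cells. Most rows are pale. Deeply coloured cells include those of Dlx1, Meis1, Pbx3, Pbx2 and Pax6 at day 14, and of Pbx3, Pbx2 and Hoxa5 on gelatin. Others are Pax6 on day 4 arrays 1 to 5, Msx2 at days 8 and 14, Hesx1 at day 8 and, in blue, Pax4 at day 14.

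More members were called at the later stages, and against sorted ES cells their shares were below those of all genes at each stage. A gene was called when limma's adjusted p, over all 12422 probe sets, was under 0.05. Against sorted ES cells, 7 members were higher and 9 lower at day 4, where 12.1% of all genes were higher and 14% lower. At day 8, 10 were higher and 15 lower (all genes 16.9% and 19.4%). At day 14, 19 were higher and 19 lower (all genes 27% and 24.4%). The day 14 split depends on the scaling: it was 16 higher and 27 lower after quantile normalization, and 14 and 33 after centring each array on its median. These scalings moved the median change of all probe sets to -0.06 and -0.11. The shares of all genes were not counted under them, so whether the members moved apart from all genes was not tested. A change of 2-fold or more was reached at day 14 by 5 members, all higher (Dlx1, Pbx3, Meis1, Pax6 and Pbx2). This is 5.88% of the members, against 8.22% of all genes. Among dim probe sets, 23.3% of members were higher and 25.6% lower at day 14, against 19.5% and 24.3% of all genes. Among brighter ones the shares were 21.4% and 19.0% of members, against 30.3% and 24.4% of all genes. The 2-fold shares were 9.30% of dim members and 5.97% of dim genes, and 2.38% and 9.20% among brighter ones.

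Between stages, 5 members were higher and 8 lower at day 8 against day 4 (all genes 13.6% and 13%). At day 14 against day 8, 17 were higher and 6 lower (all genes 21.1% and 13%). This last split also turned with the scaling, to 9 higher and 16 lower after quantile normalization and 9 and 18 after median centring. Without day 4 arrays 6 and 7 the day 8 against day 4 counts were 14 higher and 12 lower, and those at day 4 against sorted cells were 6 higher and 16 lower. Without day 8 arrays 2 and 4, the counts were 10 higher and 12 lower at day 8 against sorted cells, 6 and 6 at day 8 against day 4, and 18 and 16 at day 14 against day 8. With single arrays left out, the count of lower members at day 4 against sorted cells was 14 without day 4 array 1, and the higher count was 4 without sorted array 5 or 6 or day 4 array 3. Those of day 8 against day 4 were 8 higher without day 4 array 1, 11 higher without day 8 array 3 and 4 lower without day 8 array 4. At day 14 against day 8 the lower count was 2 without day 8 array 1, 3 or 5, 3 without day 14 array 5 and 10 without day 8 array 4. The shares of all genes were not counted with other scaling or with arrays left out.

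The EBs were seeded from cells on gelatin, so each stage was also set against that group. There 3 members were higher and 10 lower at day 4 (all genes 8.33% and 17.8%). In day 8 EBs 17 were higher and 23 lower (all genes 18.7% and 26.2%). The day 14 EBs had 17 higher and 19 lower (all genes 22.8% and 24.1%), and 2 members reached 2-fold (2.35%, against 7.14% of all genes). Comparisons with 1 day 0 group share its arrays. At day 14, 10 members were higher and 10 lower against both day 0 groups (11.8% each, where 15% of all genes were higher and 13% lower against both), and 33 passed against neither (38.8%, against 32.9% of all genes).

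**Figure D2:**
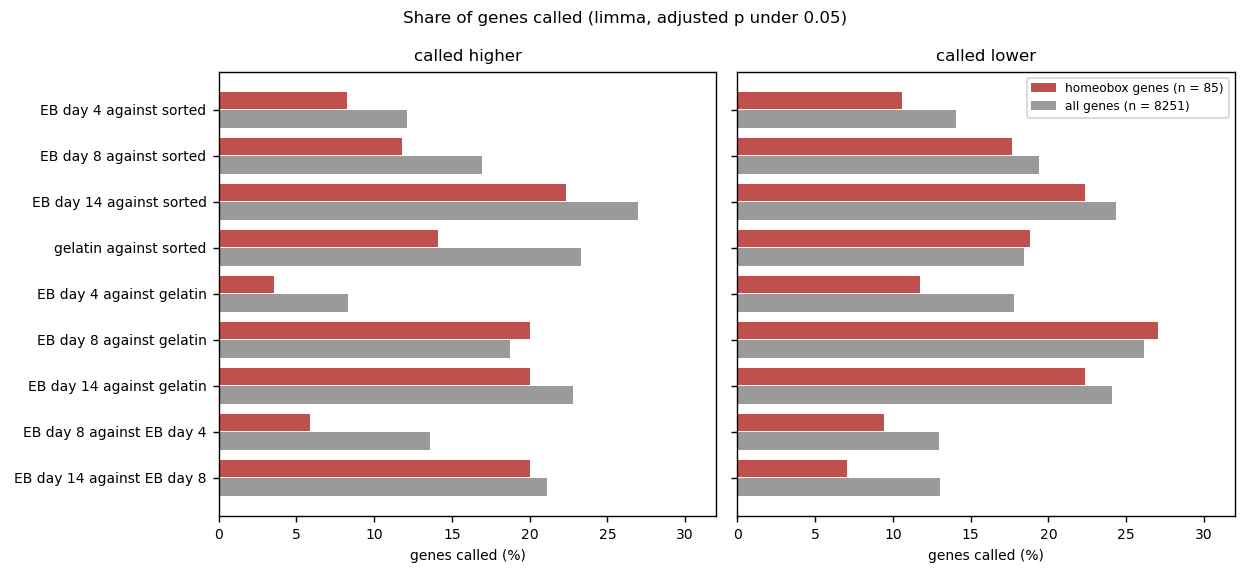
Percent of the 85 members and of all 8251 genes called higher (left) or lower (right) in 9 comparisons (limma, adjusted p under 0.05). Bars of members are shorter than those of all genes in most comparisons. They are slightly longer at day 8 against gelatin cells (20% higher and 27.1% lower, against 18.7% and 26.2%). The same holds for lower members on gelatin against sorted cells (18.8%, against 18.4%). At day 14 against sorted cells 22.4% of members were higher and 22.4% lower, against 27% and 24.4% of all genes.

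The Hox cofactor genes of the Meis and Pbx families held 3 of the 5 members that changed at least 2-fold at day 14 against sorted cells. In that comparison 4 of the 5 Meis and Pbx genes were higher (Meis1, Meis2, Pbx2 and Pbx3) and Meis3 was lower (all genes 27% and 24.4%). The median log2 change of these 5 genes was 1.05, the value of Pbx2, against -0.02 over all 85 members. The families were to be described singly, and taking Meis and Pbx together was not planned. By family the medians were 0.14 for Meis and 1.38 for Pbx. Against gelatin cells only Meis1 was higher at day 14, Meis3 was lower and 3 did not pass, with a median of 0.09. Meis2 changed by 0.14 and was not called after quantile normalization (0.073), after median centring (0.030) or without any one of 7 arrays (sorted arrays 1, 4 or 5 and day 14 arrays 2, 4, 5 or 6). Irx3, another gene of the TALE class, is given with the remaining families.

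Meis1 encodes a Hox cofactor that is also active in blood stem cells. Its lowest, median and highest signals were 72.7, 82.3 and 96.7 on gelatin, 44.9, 49.2 and 55.3 in sorted cells. In EBs they were 32.5, 54.8 and 65.9 (day 4), 36.9, 62.9 and 159.6 (day 8) and 131.4, 199.0 and 233 (day 14). The day 14 arrays lay above every array except the highest at day 8. All 6 sorted values, 5 of the 7 at day 4 and 3 of the 6 at day 8 were under the floor of 59.6 to which low values were raised, so that fold changes against these groups are understated. At day 14 the log2 change was 1.63 ± 0.17 against sorted cells (SE, limma adjusted p = 1.0e-08), 1.15 against gelatin cells and 1.23 against day 8. With a floor at the 25th percentile the change against sorted cells was 0.01 and did not pass, since nearly all its values then lie at the floor. At day 8 the arrays that stood apart, 2 and 4, read 159.6 and 100.1 while the other 4 read 36.9 to 70.5.

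Pbx3, a cofactor expressed in the nervous system and limb, was also high at day 14. Its lowest, median and highest signals were 629.9, 740.4 and 1185 on gelatin, 268.5, 317 and 355 in sorted cells. The EBs had 305.5, 408.5 and 895 (day 4), 395, 479.6 and 834 (day 8) and 738, 1029 and 1399.8 (day 14). No sorted array reached the lowest value on gelatin or at day 14. The log2 change at day 14 was 1.70 ± 0.22 against sorted cells (adjusted p = 4.36e-07) and 0.42 ± 0.22 against gelatin cells, which did not pass (adjusted p = 0.129). The other 2 probe sets of Pbx3 gave smaller changes at day 14 against sorted cells, 0.42 ± 0.07 and 0.57 ± 0.09, both called. Against gelatin cells these probe sets gave 0.18 (adjusted p = 0.0243) and 0.55 (adjusted p = 9.26e-06), so for Pbx3 the direction was shared and the size was not.

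Pbx2 had a mean signal of 477 ± 87.7 on gelatin, 230.3 ± 27.9 in sorted cells, 368 ± 73.1 at day 4, 419 ± 101 at day 8 and 479 ± 75.4 at day 14 (SD, n = 6, and 7 at day 4). All gelatin and day 14 arrays were above all sorted arrays, and those from gelatin and day 14 overlapped. The log2 change of Pbx2 was 1.05 ± 0.15 at day 14 against sorted cells (adjusted p = 1.62e-06) and 0.01 against gelatin cells. Day 8 arrays 2 and 4 read 567.8 and 515.5 for Pbx2 and 834 and 805 for Pbx3, above the other 4 day 8 arrays in both genes. Without these arrays the day 8 change of Pbx3 against sorted cells, 0.78 in full, was 0.48 and did not pass (adjusted p = 0.107), while that of Pbx2 was 0.64 and passed (adjusted p = 0.00207).

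**Figure D3:**
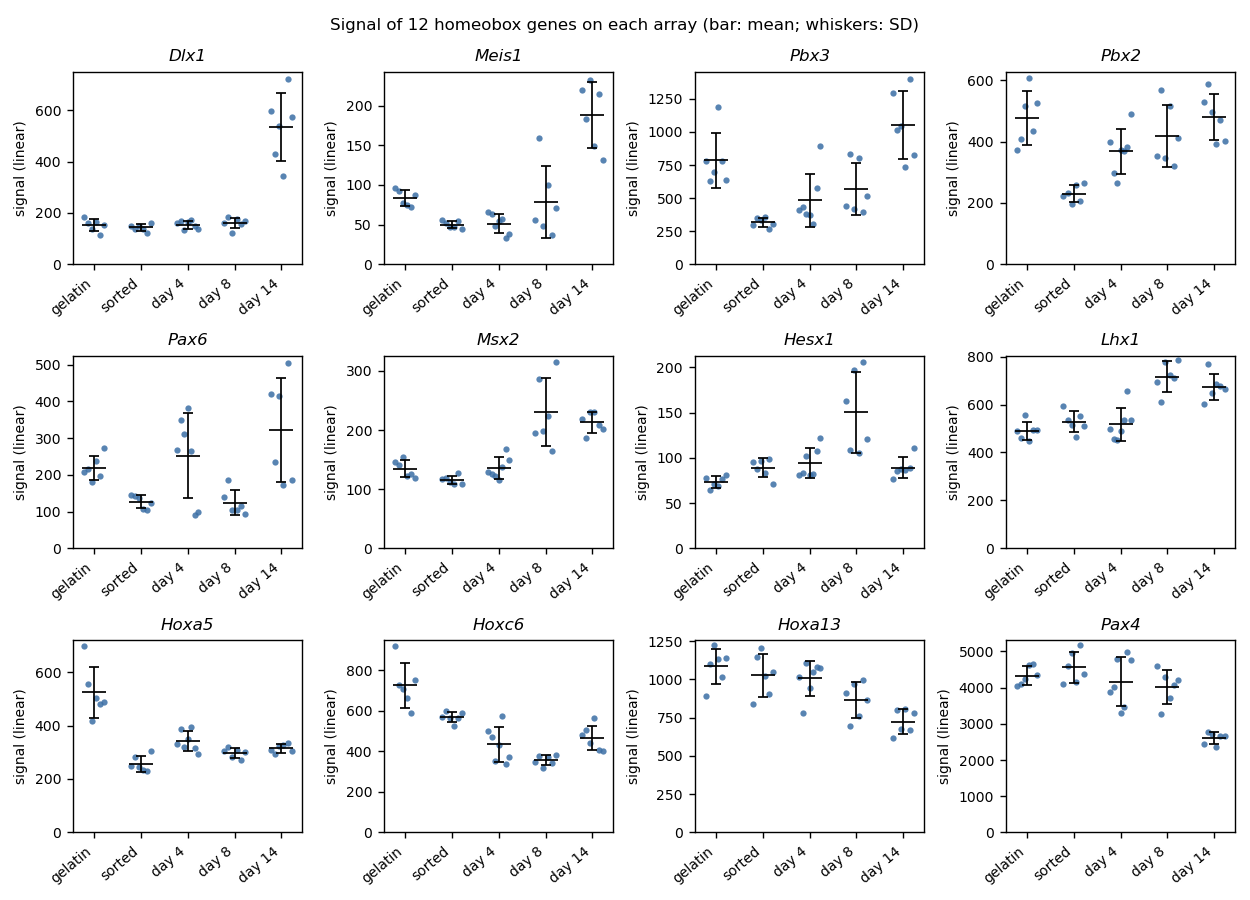
Linear signal of 12 members on each array, by group, with the group mean (bar) and SD (whiskers). Dlx1 and Meis1 were highest at day 14, Hesx1 at day 8, Hoxa5 and Hoxc6 on gelatin, and Pax4 was lowest at day 14, where its 6 arrays lie between 2362 and 2776.

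Dlx1 had the largest change of all members. It belongs to the distal-less family, which directs the making of inhibitory neurons in the forebrain and the patterning of the face. Its lowest, median and highest signals were 113, 157 and 182 on gelatin, 123, 143 and 161 in sorted cells. In EBs they were 133, 161 and 171 (day 4), 122, 164 and 182 (day 8) and 344, 556 and 719.9 (day 14). The 4 earlier groups overlapped, and every day 14 array was above all of them. The log2 change at day 14 was 1.87 ± 0.13 against sorted cells (adjusted p = 9.89e-12), 1.79 against gelatin cells and 1.70 against day 8. It was 0.11 at day 4 and 0.16 at day 8 against sorted cells, neither called. With any single array left out, the day 14 change against sorted cells lay between 1.77 and 1.99.

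Of the 6 coding Dlx genes, 3 were higher at day 14 against sorted cells and none was lower (all genes 27% and 24.4%). Dlx2, the neighbour and partner of Dlx1, averaged 105.1 ± 27.1 at day 14 and 73.1 ± 7.63 in sorted cells, a log2 change of 0.49 (adjusted p = 0.00658). Dlx5, a gene of bone and craniofacial development, averaged 124.5 ± 19.3 at day 14 and 97.7 ± 5.95 in sorted cells, a change of 0.34 (adjusted p = 0.0062). Against gelatin cells, Dlx5 changed by 0.66 and was called, and Dlx2 by 0.18 and was not. With the floor at the 25th percentile the values of Dlx2 and Dlx5 lie at the floor and neither is called, which leaves Dlx1 of the 3. Dlx4 was lower at day 4 against sorted cells (-0.29) and did not pass at day 14. The antisense RNA Dlx6os2 was lower at day 14 against sorted cells (-0.22) and Dlx1as was not called at that stage. The Dlx6os2 call was lost with only the groups compared (adjusted p = 0.0530). Its other probe set gave -0.10 and was not called (adjusted p = 0.250).

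Msx1 and Msx2 are targets of BMP signals in limb, tooth and skull. Of the 3 Msx genes, 1 was higher at day 8 (Msx2) and 2 at day 14 (Msx1 and Msx2) against sorted cells, where 16.9% and 27% of all genes were higher. Msx2 had lowest, median and highest signals of 119, 133 and 154 on gelatin, 108.5, 115 and 127 in sorted cells. The EBs had 115, 129 and 168 (day 4), 164, 211 and 315 (day 8) and 186, 214 and 230.7 (day 14). No sorted array reached the lowest at day 8 or day 14. The log2 change of Msx2 against sorted cells was 0.22 at day 4 (not called), 0.96 ± 0.11 at day 8 (adjusted p = 2.7e-07) and 0.88 ± 0.11 at day 14 (adjusted p = 3.71e-07). It was also called against gelatin cells, at 0.75 and 0.66. With the floor at the 25th percentile the changes of Msx2 against sorted cells were 0.14 (adjusted p = 0.0603) and 0.014, and neither was called. Msx1 averaged 968 ± 104 at day 8 and 1099 ± 41.2 at day 14, against 876 ± 16.6 in sorted cells, and the day 14 change was 0.33 ± 0.06 (adjusted p = 7.94e-05). Msx3 was not called against sorted cells at any stage.

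Among the Pax genes, Pax6 was higher and Pax4 lower at day 14 against sorted cells, and 5 of the 8 members did not pass. Of all genes, 27% were higher and 24.4% lower in that comparison. Pax6 directs eye, brain and islet development. Its lowest, median and highest signals were 180.4, 212 and 272 on gelatin, 102.8, 130.0 and 144 in sorted cells. In EBs they were 91.8, 267 and 382 (day 4), 93.3, 111 and 187 (day 8) and 173.5, 325 and 503 (day 14). The day 4 arrays fell into a high set and a low pair: arrays 1 to 5 read 264 to 382, and arrays 6 and 7, those that stood apart over all probe sets, read 91.8 and 99.0. At day 14 Pax6 changed by 1.24 ± 0.31 against sorted cells (adjusted p = 0.00146), by 1.29 against day 8 (adjusted p = 0.00214) and by 0.45 against gelatin cells, which did not pass. At day 4 the change of Pax6 against sorted cells was 0.83 ± 0.30 (adjusted p = 0.0413), and without arrays 6 and 7 it was 1.31 (adjusted p = 9.09e-05). That day 4 call was lost when any of 11 arrays was left out singly (sorted arrays 1 to 6 and day 4 arrays 1 to 5), with changes between 0.70 and 1.04 over all such fits. The change of Pax6 at day 8 against day 4 was -0.88 (adjusted p = 0.0298), and -1.37 without day 4 arrays 6 and 7 (adjusted p = 3.03e-05). It lost its call without any one of day 4 arrays 1 to 5 or day 8 arrays 3, 4 or 6, at -0.84 to -0.75.

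Pax4, known for its role in the pancreatic beta cell, had the largest fall at day 14 against sorted cells. Its probe set was bright and even through the early groups, at 4331 ± 258 on gelatin, 4561 ± 436 in sorted cells, 4166 ± 677 at day 4 and 4022 ± 465 at day 8, and averaged 2605 ± 165 at day 14. Only 2 members had a mean signal over 2000, and whether this probe set reports Pax4 alone was not tested. The 6 day 14 arrays, at 2362 to 2776, lay below all 25 others. The log2 change of Pax4 was -0.80 ± 0.09 against sorted cells (adjusted p = 3.66e-08), -0.73 against gelatin cells and -0.62 against day 8. Pax2 was also lower against sorted cells (-0.20), and Pax5, Pax9 and Pax1 were called in none of the 9 comparisons. For Pax5 this holds for its brighter probe set only. The other probe set of Pax5 was higher on gelatin than in sorted cells (0.27, adjusted p = 0.00302). At day 14 that probe set was lower against sorted cells (-0.20, adjusted p = 0.0228) and against gelatin cells (-0.47, adjusted p = 3.82e-06).

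Hesx1 was highest at day 8 and averaged 89.2 ± 11.5 at day 14, against 88.8 ± 10.5 in sorted cells. It encodes a repressor needed for the forebrain and pituitary. The lowest, median and highest signals were 64.7, 73.7 and 81.2 on gelatin, 70.9, 91.3 and 99.0 in sorted cells. The EBs had 81.0, 83.6 and 121 (day 4), 105.9, 142 and 206 (day 8) and 76.2, 86.9 and 110.9 (day 14). Every day 8 array was above every array of both day 0 groups. Against sorted cells the log2 change of Hesx1 was 0.08 at day 4, 0.71 ± 0.14 at day 8 (adjusted p = 0.000282) and 0.01 at day 14, and day 14 against day 8 gave -0.71 (adjusted p = 0.000428). Day 8 arrays 2 and 4 read 109 and 105.9, with array 6 at 121 and the other 3 at 163 to 206. Without arrays 2 and 4 the day 8 change was 0.93 (adjusted p = 1.19e-05). With the floor at the 25th percentile all its values lie at the floor and nothing is called.

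Gsc, a gene of the gastrula organizer, averaged 276 ± 17.7 on gelatin, 287 ± 34.3 in sorted cells, 273.5 ± 38.6 at day 4, 246 ± 38.7 at day 8 and 212 ± 17.5 at day 14. It was called at day 14 only, at -0.43 ± 0.10 against sorted cells (adjusted p = 0.000633) and -0.38 against gelatin cells. Cdx genes act upstream of Hox genes in the posterior body and none of the 3 was called at day 14 against sorted cells (Cdx1 0.02, Cdx2 0.06, Cdx4 -0.16). Cdx4 was lower at day 8 (-0.33, adjusted p = 0.0372), a call lost after quantile normalization (-0.27, adjusted p = 0.0665), with the floor at the 25th percentile, and without any one of sorted arrays 3, 4 or 5 or day 8 arrays 1, 3 or 5. Cdx1 was higher at day 4 against sorted cells (0.18, adjusted p = 0.0415), a call lost without any one of 7 arrays (sorted arrays 1, 5 or 6 and day 4 arrays 2 to 5), and changed by -0.04 against gelatin cells.

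In the LIM family, Lhx1 and Lhx8 were higher and Lhx3 lower at day 14 against sorted cells. Lhx1 works in the head organizer and the early kidney. Its signal averaged 490.2 ± 37 on gelatin, 529 ± 43.7 in sorted cells, 517 ± 69.6 at day 4, 717 ± 64 at day 8 and 674 ± 54.3 at day 14 (SD). Both later stages were above all day 0 arrays, and the log2 change against sorted cells was 0.44 ± 0.08 at day 8 (adjusted p = 8.36e-05) and 0.35 ± 0.08 at day 14 (adjusted p = 0.000553). Lhx8, a gene of basal forebrain neurons and of oocytes, averaged 633 ± 59.9 on gelatin, 399 ± 42.6 in sorted cells, 661 ± 157 at day 4, 521 ± 44.6 at day 8 and 584.5 ± 90.6 at day 14. For Lhx8 the sorted cells were the low group, below every other array, and no EB stage was called against gelatin cells.

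The Hox genes moved little. Of the 31, 3 were higher and 8 lower at day 14 against sorted cells, with a median log2 change of -0.04 and a range of -0.50 to 0.30. These are 9.68% higher and 25.8% lower, where 27% of all genes were higher and 24.4% lower. The 3 higher were Hoxa5, Hoxb8 and Hoxc8, of which only Hoxc8 was also higher against gelatin cells. Hoxb8 was lower on its other probe set, as given below, so the counts that follow hold for the chosen probe sets. By Hox number, none was higher and 2 were lower of 8 genes numbered 1 to 4, 3 were higher and 4 lower of 11 numbered 5 to 8, and none was higher and 2 were lower of 12 numbered 9 to 13. By cluster the counts were 1 higher and 4 lower of 10 Hoxa genes, 1 and 2 of 9 Hoxb genes, 1 and 2 of 5 Hoxc genes, and none of 7 Hoxd genes. Of the 51 coding members outside the clusters, 16 were higher and 10 lower.

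**Figure D4:**
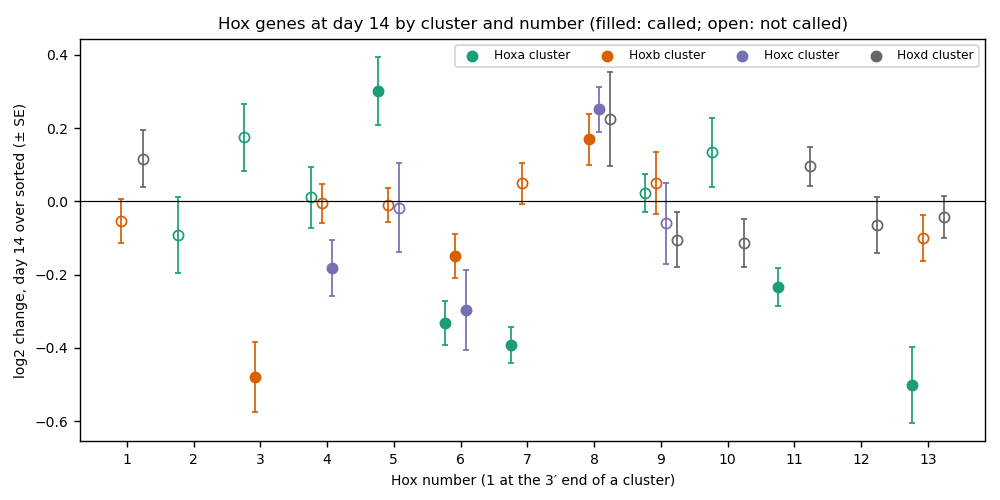
Log2 change (± SE) of the 31 Hox genes at day 14 against sorted ES cells, by Hox number on the x axis and by cluster in colour, with filled points called by limma. All values lie between -0.50 (Hoxa13) and 0.30 (Hoxa5), and no Hoxd gene was called.

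Hoxa13, the last gene of its cluster and active in limb tips and hindgut, averaged 1086 ± 116 on gelatin, 1028 ± 140 in sorted cells, 1007 ± 114 at day 4, 867 ± 117 at day 8 and 725 ± 81.5 at day 14. Its day 14 arrays were below all day 0 arrays, with a log2 change of -0.50 ± 0.10 against sorted cells (adjusted p = 0.000218). Hoxb3, a hindbrain gene, averaged 100.3 ± 8.25 at day 8 and 102.3 ± 7.03 at day 14, against 143 ± 19.3 in sorted cells, with changes of -0.51 ± 0.09 and -0.48 ± 0.09, both lost with the floor at the 25th percentile, where its values lie at the floor. Hoxa7 averaged 403 ± 22.2 at day 14 and 529 ± 30.5 in sorted cells, a change of -0.39 ± 0.05 (adjusted p = 2.56e-07). These 3 genes were lower at day 14 against gelatin cells as well.

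Hoxc6 was lowest at day 8. Its lowest, median and highest signals were 591, 717 and 920.5 on gelatin, 526, 567 and 599.8 in sorted cells. In EBs they were 339.6, 432 and 574 (day 4), 320.5, 362 and 380.3 (day 8) and 404, 459.9 and 563 (day 14). The log2 change of Hoxc6 against sorted cells was -0.41 ± 0.10 at day 4, -0.67 ± 0.11 at day 8 (adjusted p = 2.26e-05) and -0.30 ± 0.11 at day 14 (adjusted p = 0.026). Day 14 was higher than day 8, by 0.38 ± 0.11 (adjusted p = 0.00912), and the 2 stages did not overlap. The day 14 call against sorted cells was lost without day 14 array 5 or 6, at -0.26 in both cases.

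Other Hox results rest on 1 of several probe sets. Hoxb8 was called higher at day 14 against sorted cells on its brighter probe set (0.17 ± 0.07, adjusted p = 0.0474), whereas the other gave -0.87 ± 0.12 (adjusted p = 5.8e-07), with means of 188 ± 12.4 at day 14 and 346 ± 59.5 in sorted cells. The mean of both Hoxb8 probe sets gave -0.35, so no direction is given for this gene. Hoxa6 was lower on gelatin (-0.40) and at day 14 (-0.33) against sorted cells on the brighter probe set, and the other gave 0.14 and 0.03, neither called. The opposite-strand RNA Hoxa11os was not called on the brighter probe set (0.04) and was -0.54 on the other (adjusted p = 1.81e-05) at day 14. For Hoxd8, the brighter probe set gave 0.23 at day 14 (not called) and the other 0.34 (adjusted p = 8.19e-05).

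The Nkx, sine oculis and remaining families held small changes. Of 8 Nkx genes, none was higher and 4 were lower at day 14 against sorted cells (all genes 27% and 24.4%), and all 8 changes were between -0.26 and -0.02. Nkx2-5, the cardiac Nkx gene, averaged 415 ± 21.6 at day 14 and 429.7 ± 50.1 in sorted cells and was not called (-0.04). In that comparison 10 of 15 mesoderm and cardiac markers were higher and 1 lower. Against gelatin cells Nkx2-5 was called higher at day 14, and 11 of the 15 markers were higher and none lower. Nkx2-2, a gene of the ventral neural tube and islets, was lower against sorted cells in day 4 and day 8 EBs, with a log2 change of -0.30 in both. Six4 averaged 1562 ± 48.4 at day 14 and 1428 ± 38.5 in sorted cells, a change of 0.13 (adjusted p = 0.0396) that was 0.022 after quantile normalization and 0.023 after median centring and not called in either, nor without any one of sorted arrays 1, 4, 5 or 6 or day 14 arrays 1, 3 or 5. Its other probe sets gave -0.11 and 0.13, neither called. Six3 was lower on its brighter probe set (-0.25) and higher on the other (0.35), both called. En2, of the midbrain and hindbrain boundary, changed by 0.43, Irx3 by 0.35 and the hindlimb gene Pitx1 by 0.26 at day 14 against sorted cells, all called. After median centring Pitx1 changed by 0.15 and was not called (adjusted p = 0.0596).

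The 2 day 0 groups differed at 28 members. On gelatin 12 members were higher and 16 lower than in sorted cells, where 23.3% of all genes were higher and 18.4% lower, and Pbx3 (1.28 ± 0.22), Pbx2 (1.04 ± 0.15) and Hoxa5 (1.02 ± 0.09) were at least 2-fold higher. The other 2 Pbx3 probe sets gave 0.23 (called) and 0.02 (not called) in this comparison. Lhx8 (0.67), Pax6 (0.79, adjusted p = 0.0412), Meis1 (0.48, adjusted p = 0.0274), Hoxc6 (0.34), En1 (0.28) and En2 (0.29, not called after quantile normalization) were also higher, and Six4 (-0.39), Hoxa6 (-0.40), Dlx5 (-0.33), Six6 (-0.32) and Hoxb6 (-0.30) lower. The call of Pax6 was lost without any one of gelatin arrays 1, 2, 4, 5 or 6 or sorted arrays 3 to 6, at 0.73 to 0.82, and that of Meis1 without gelatin array 1 (0.43) or 2 (0.45). The other 2 Six4 probe sets gave -0.04 and -0.26 on gelatin against sorted cells, neither called. With the mean of the probe sets Six4 was -0.23 (adjusted p = 0.0596) and Hoxa6 -0.13, neither called. With the floor at the 25th percentile Pax6, Meis1, Dlx5 and Six6 were not called. Alongside, 11 of 18 fibroblast genes and 8 of 17 neural genes were higher on gelatin and none was lower, their summed signals did not overlap between the groups (neural 21851 to 26575 on gelatin and 14966 to 16248 in sorted cells), and the Gapdh 3′ to 5′ ratio was higher. The part of these in the differences of Hoxa5, Hoxc6, Pbx2, Pbx3, Pax6 and Meis1 was not tested.

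Hoxa5, a gene of lung and axial skeleton, was the clearest of these. Its lowest, median and highest signals were 418, 496.5 and 696 on gelatin, 228, 245 and 305.5 in sorted cells. The EBs had 292, 329 and 393 (day 4), 271, 302 and 321 (day 8) and 292, 316 and 333 (day 14). The gelatin arrays lay above all 25 others. Hoxa5 was called higher against sorted cells and lower against gelatin cells at day 4 (0.41 and -0.61) and at day 14 (0.30 and -0.72). After median centring the day 14 change of Hoxa5 against sorted cells was 0.19 and was not called (adjusted p = 0.0543). Hoxb6 was the other member called in opposite directions, at day 14 (-0.15 and 0.15). Its call against sorted cells was lost with only the groups compared (adjusted p = 0.0698) and without any one of 9 arrays (sorted arrays 1, 2, 3 or 5 and day 14 arrays 1 to 5).

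**Figure D5:**
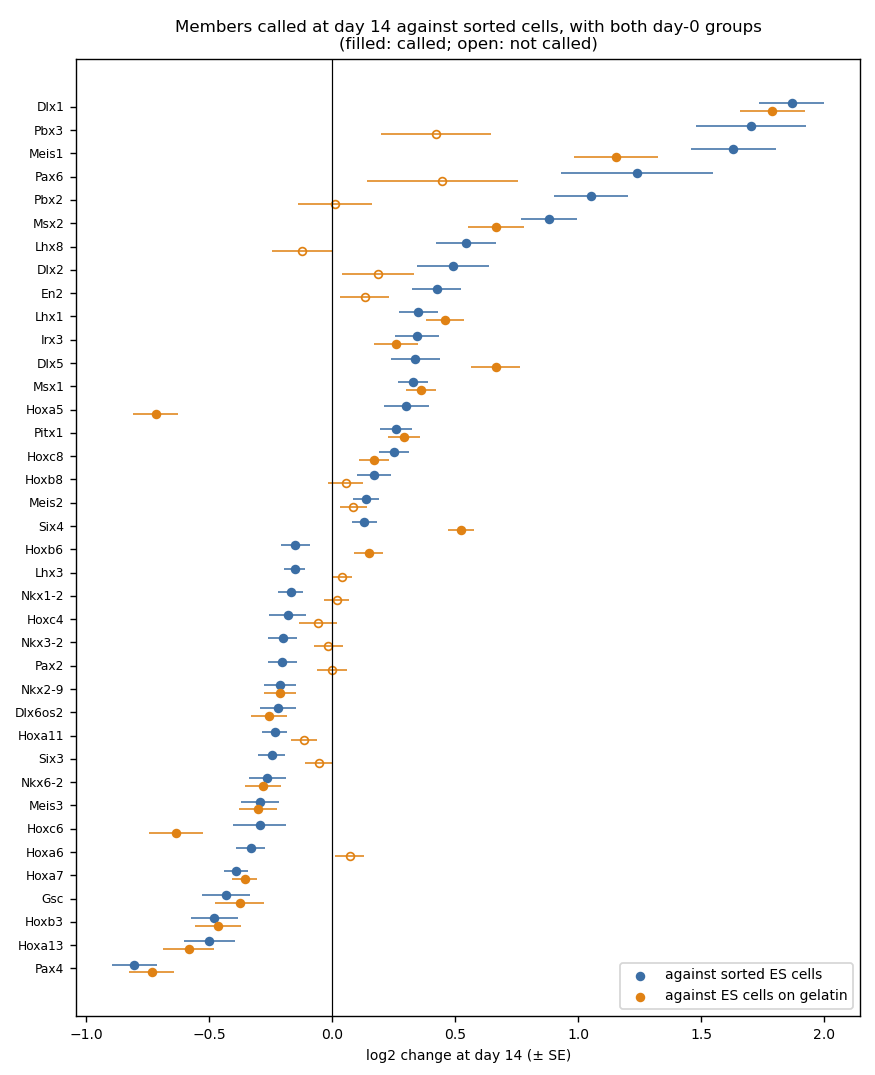
Log2 change (± SE) at day 14 of the 38 members called against sorted ES cells (blue) and the same genes against ES cells on gelatin (orange), filled where called. Dlx1, Meis1, Msx2 and Pax4 are filled on the same side for both, whereas Hoxa5 lies at 0.30 against sorted cells and at -0.72 against gelatin cells.

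Some single genes of other lists changed by more than any member. Of 50 measured homeobox genes outside the naming rule, 7 were higher and 16 lower at day 14 against sorted cells (all genes 27% and 24.4%), with a median log2 change of -0.03, with Pou5f1 (Oct4, the pluripotency factor) at -2.64 ± 0.26, Nanog at -1.46 ± 0.23 and Rhox5 at -1.23 ± 0.24, and with Isl1, a gene of heart progenitors and motor neurons, at 1.53 ± 0.14. Sorting was on an Oct4 reporter, so Pou5f1 is not independent of the sorted group. Of 14 genes of retinoic acid handling, the signal that induces Hox genes, 3 were higher and 2 lower (median -0.04): Cyp26a1, which breaks retinoic acid down, changed by 2.42 ± 0.28, Crabp2, which binds it in the cell, by 2.02 ± 0.27, and Aldh1a3, which makes it, by 0.62 ± 0.13. Of 22 Polycomb and Trithorax genes, which keep homeobox genes off or on, 7 were higher and 8 lower (median -0.01), among them Bmi1 (0.96 ± 0.16), Phc1 (-0.93 ± 0.14) and Mtf2 (-0.93 ± 0.22). At the same stage 10 of 13 endoderm markers were higher and 1 lower, 10 of 15 mesoderm and cardiac markers higher and 1 lower, 10 of 18 fibroblast markers higher and 4 lower, and 8 of 17 neural markers higher and 3 lower. Of 20 pluripotency genes none was higher and 19 were lower. The share of each cell type in the members' changes was not tested.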

How the data were processed

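RNA of the 31 samples was amplified in 2 rounds and hybridised to Affymetrix MgU74Av2 arrays. The deposited values are dChip signal intensity on a linear scale, normalized by the authors. The dChip version and model are not given in the sources used here. For the last stage the methods name 12 days and the labels 14, and the labels were used. Each array counted as 1 sample of its group.

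Without 66 control probe sets, 12422 of 12488 were tested. Values below the 5th percentile (59.6) were set to it before log2 transformation. The group means of all 5 groups were fitted together in limma 3.58.1 (R 4.3.3, eBayes with trend), and adjusted p-values are Benjamini-Hochberg over all tested probe sets, with calls under 0.05. The code was tested on simulated data. The number of arrays limits the precision. Same-numbered arrays are not known to pair samples. The correlation of their deviations was -0.351 to 0.494, and with no differently numbered arrays compared, this range cannot decide it.

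The members and lists were chosen with earlier results of these data known. The members to name were up to 6 with the largest change in each direction among those called in each of 6 comparisons, the 2 brightest of each family, a set of well-known genes (Hesx1, Gsc, Cdx1, Cdx2, Pax6, Hoxb1, Nkx2-5, Lhx1, Msx1, Msx2 and Meis1 among those measured), and members called in opposite directions against the day 0 groups. For other lists they were up to 3 genes with the largest change. Meis3, Pax1, Pax2, Pax9, Hoxa10, Hoxb4, Hoxc8, Lhx3, Six3, Dlx1as and Hoxa11os were named after their values were seen. Fits without day 4 arrays 6 and 7, or without day 8 arrays 2 and 4, were chosen after seeing the data. Promoters are from RefSeq (GRCm38.p6), and figures were drawn with matplotlib 3.10.9.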

Additional observations from a re-analysis of the deposited data

Results flagged for a closer look

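In 17 of 279 groups checked (each a member in 1 group of 6 or 7 arrays), 1 array stood away from the rest by Dixon's criterion at the 95% level, which chance alone meets in about 5% of groups. At day 8, array 3 was the low one for Cdx1 (117, nearest other array 131), Dlx1 (122, nearest 157), Hoxc9 (429.7, nearest 545), Nkx2-5 (341, nearest 444) and Six4 (1199, nearest 1384), and array 2 was high for Dlx2 (100.1, nearest 67.6). Lhx6, a gene of forebrain interneurons, had 1 low array in sorted cells (363, nearest 570), at day 8 (402, nearest 556) and at day 14 (411, nearest 528). At day 14, Cdx4 had a high array (134, nearest 106) and Nkx2-6 a low one (111, nearest 137). At day 4, Pitx1 (1139, nearest 974) and Six2 (1288, nearest 1079) each had a high array. On gelatin, Pbx3 had a high array (1185, nearest 782) and Msx3 a low one (166, nearest 203). In sorted cells, Hoxb1 (434, nearest 471) and Msx3 (202, nearest 235) each had a low array.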

How the results depend on the processing

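Of 115 calls of named members, 54 kept direction and call under every alternative that kept the sorted cells as day 0 and the dim probe sets in, a 2-fold limit aside. These include Dlx1, Pbx3, Pax4, Pax6 and Msx1 at day 14 and Hoxa5 on gelatin, all against sorted cells. A floor at the 25th percentile lost 32 calls, among them those of Meis1, Msx2 and Hesx1, whose values then lie largely at the floor. The cause of the other changes was not tested.

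Counts of members follow. Against sorted cells at day 4, the higher count (7) was 4 with the 25th percentile floor, 2 without dim probe sets, 4 with only the groups compared, 0 with a 2-fold limit, 3 against gelatin cells, 2 against the pooled day 0 groups and 4 to 6 with 1 array left out. The lower count (9) was 18 with array weights, 0 with the 2-fold limit, 16 without day 4 arrays 6 and 7, and 7 to 14 with 1 array left out. At day 8, the higher count (10) was 5 without dim probe sets, 0 with the 2-fold limit, 17 against gelatin cells and 9 to 13 with 1 array left out. The lower count (15) was 8, 0 and 23 in the same alternatives and 11 to 17 with 1 array left out. At day 14, the higher count (19) was 7 without dim probe sets and 5 with the 2-fold limit, and the lower count (19) was 33 after median centring, 8 without dim probe sets and 0 with the 2-fold limit. Both were 16 to 20 with 1 array left out. On gelatin, the higher count (12) was 5 without dim probe sets, 3 with the 2-fold limit and 8 to 13 with 1 array left out. The lower count (16) was 25 after median centring, 5 without dim probe sets, 0 with the 2-fold limit and 15 to 18 with 1 array left out.

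At day 8 against day 4, the higher count (5) was 3 with the 25th percentile floor, 2 without dim probe sets, 21 with array weights, 0 with the 2-fold limit, 14 without day 4 arrays 6 and 7, and 4 to 11 with 1 array left out. The lower count (8) was 5 with that floor, 5 without dim probe sets, 3 with only the groups compared, 0 with the 2-fold limit, 12 without day 4 arrays 6 and 7, and 4 to 11 with 1 array left out. At day 14 against day 8, the higher count (17) was 9 after quantile normalization, 9 after median centring, 10 without dim probe sets, 3 with the 2-fold limit and 12 to 16 with 1 array left out. The lower count (6) was 16 after quantile normalization, 18 after median centring, 3 without dim probe sets, 17 with array weights, 0 with the 2-fold limit, 16 without day 8 arrays 2 and 4, and 2 to 10 with 1 array left out. With the replicate block, a paired fit, 20 members were higher and 19 lower at day 14 against sorted cells, and the array numbers are not known to pair samples.

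Some log2 changes turned sign. With gelatin cells as day 0, they were -0.039 for Cdx1, -0.61 for Hoxa5, 0.092 for Hoxa6, 0.092 for Hoxb6 and -0.38 for Pbx2 at day 4. At day 8 they were 0.080 for Dlx4, 0.13 for Hoxa6, -0.28 for Lhx8, -0.20 for Pbx2 and -0.50 for Pbx3, and at day 14 they were -0.72 for Hoxa5, 0.070 for Hoxa6, 0.15 for Hoxb6 and -0.13 for Lhx8. With the pooled day 0 groups, Hoxa5 was -0.10 at day 4 and -0.21 at day 14. With the mean of the probe sets, Hoxb8 was -0.35 at day 14 against sorted cells and Six4 -0.031 at day 14 against day 8.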
